A study of Rattus norvegicus with 10 samples.

Results

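Arc, Bdnf and Ntrk2 were taken from the gene counts of the rat PFC by their Ensembl identifiers, which are ENSRNOG00000043465 for Arc, ENSRNOG00000047466 for Bdnf and ENSRNOG00000018839 for Ntrk2. These are 3 of the 30560 genes in the table, and all 3 passed the filter on low counts that left 16137 genes for testing. The RNA came from 10 male, wild-type SD rats. They were 21 days old when purchased and were then habituated for 1 week before the injections began. In the MK-801 group, 5 rats were injected intraperitoneally for 2 weeks with 0.2 mg/kg MK-801, which blocks the NMDA receptor non-competitively, and the 5 rats of the control group received saline (0.9%) over the same time. PFC tissue was taken when the rats were sacrificed and frozen, and each rat gave 1 library. The methods do not say how long after the last injection the sequenced tissue was taken.

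Arc encodes a cytoskeleton-associated protein of dendrites and spines. It is an immediate early gene, so its mRNA appears rapidly and briefly after synaptic activity, largely through NMDA receptors and MAP kinase signaling, and its protein promotes the endocytosis of AMPA receptors. Bdnf encodes brain-derived neurotrophic factor, a secreted growth factor whose transcription in cortical neurons also depends on activity. Ntrk2 encodes TrkB, the high-affinity receptor of BDNF, as a full-length tyrosine kinase in neurons and as truncated forms without the kinase domain that astrocytes express strongly. BDNF acting on TrkB is in turn known to induce Arc.

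Bdnf is transcribed from several alternative starts, each with its own leader exon and all joined to the same coding exon. The deposited count is 1 value per gene, so the starts cannot be told apart. In the RefSeq annotation of the GRCr8 build, 6 start windows of 300 bases were found for Bdnf. Those beginning at 116639552 and 116639608 overlap over most of their length. The E-box, CACGTG, occurred in 1 of the 6 windows and in 6.42% of the windows of all genes. None of the 6 held the full cAMP response element, TGACGTCA, the palindromic site bound by CREB, which occurred in 1.83% of the 33469 windows of all genes. Its shorter core, CGTCA, searched on both strands and contained in the full element, occurred in 1 of the 6 windows and in 21.2% of all windows. The window with this core is shown because CREB-dependent, activity-driven Bdnf transcription is usually described at such a site. The sequence is the 250 bases before that start on the plus strand, chr3:116637608-116637857 of GRCr8, with the core in capitals beginning 35 bases before the start.
Bdnf start: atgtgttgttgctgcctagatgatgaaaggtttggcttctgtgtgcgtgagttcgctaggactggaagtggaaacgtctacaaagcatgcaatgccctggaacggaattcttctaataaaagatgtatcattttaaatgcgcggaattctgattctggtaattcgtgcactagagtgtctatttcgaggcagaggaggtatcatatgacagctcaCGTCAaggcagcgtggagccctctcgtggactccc
A match of letters does not show that a factor binds there, and the counts do not say which start was used.

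Control rats had between 24348037 and 29375092 counts in all, and MK-801 rats between 24334589 and 30824539. The share held by each rat's 10 top genes was 6.0% to 10.9% among controls and 5.86% to 7.05% among MK-801 rats. Levels are given as CPM, counts per 1000000 counts of the TMM-scaled library. Counting error was small beside the spread between rats. The lowest count, 320 for Bdnf, has a counting error of 5.59%, and the counting error at the lowest Ntrk2 count was 0.759%. CPM was not divided by gene length, so levels are compared between rats and not between genes. In whole PFC tissue, fewer cells of a type and less RNA per cell cannot be told apart. The table does not pair identifiers with gene names, so markers of cell types were not checked.

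Of the 3 genes, Arc had the largest difference in means and the widest spread between rats. In the control group, Arc was at 29.8, 40.2, 44.7, 62.7 and 101 CPM in replicates 1 to 5. In the MK-801 group, it was at 24.6, 194, 247, 186 and 178 CPM in replicates 1 to 5. MK-801 replicates 2 to 5 therefore lay above every control rat, whereas MK-801 replicate 1 lay below every control rat. The lowest of replicates 2 to 5 was at 1.76 times the level of the highest control rat. The groups overlapped for all 3 genes, and did not overlap for 2.31% of the genes tested. The Arc mean was 166 ± 83.6 CPM in the MK-801 group and 55.7 ± 28.0 CPM in the control group (SD, n = 5 each), and the median was 186 CPM against 44.7 CPM.

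The log2 fold change of Arc was 1.57 (standard error 0.48), a fold change of 2.98 with a 95% interval from 1.43 to 6.17. Its unadjusted p was 0.00684 in edgeR's quasi-likelihood test, and its adjusted p was 0.268 after Benjamini-Hochberg adjustment over the 16137 genes. In this test, Arc thus met the selection criteria of the methods. They ask for a p below 0.05, read here as the unadjusted one, and for a log2 fold change of 1 or more in size. In the same test, 0.229% of the genes (37 genes) met them, of which 27 were higher in the MK-801 group (0.167%). These counts are from edgeR, whereas the methods applied the criteria to DESeq2, so they are not the study's own. The share of counts held by the 10 top genes was above 7.05%, the highest MK-801 value, in control replicates 1 to 4 but not 5. As a covariate, it is thus partly confounded with the group. Once it was fitted, Arc no longer met the criteria, with a log2 fold change of 1.27 and an unadjusted p of 0.0533 in edgeR's test. In the fit without it, 2235 genes (13.9%) had an unadjusted p under 0.05 in edgeR. Arc did not pass the adjusted threshold there, which 0% of the genes passed. By limma-voom, 0 genes passed it. In DESeq2, which the methods used, the log2 fold change of Arc was 1.58 with an unadjusted p of 0.00492, so the criteria were met. Its adjusted p was 0.134, while 106 genes (0.724% of those with an adjusted p) passed. Over the 252 ways to split the rats, the two-sided exact permutation test gave p = 0.0873, where the smallest possible value is 0.00794. By size of the fold change alone, Arc was at rank 10 from the top, and by p-value at rank 401.

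**Figure D1:**
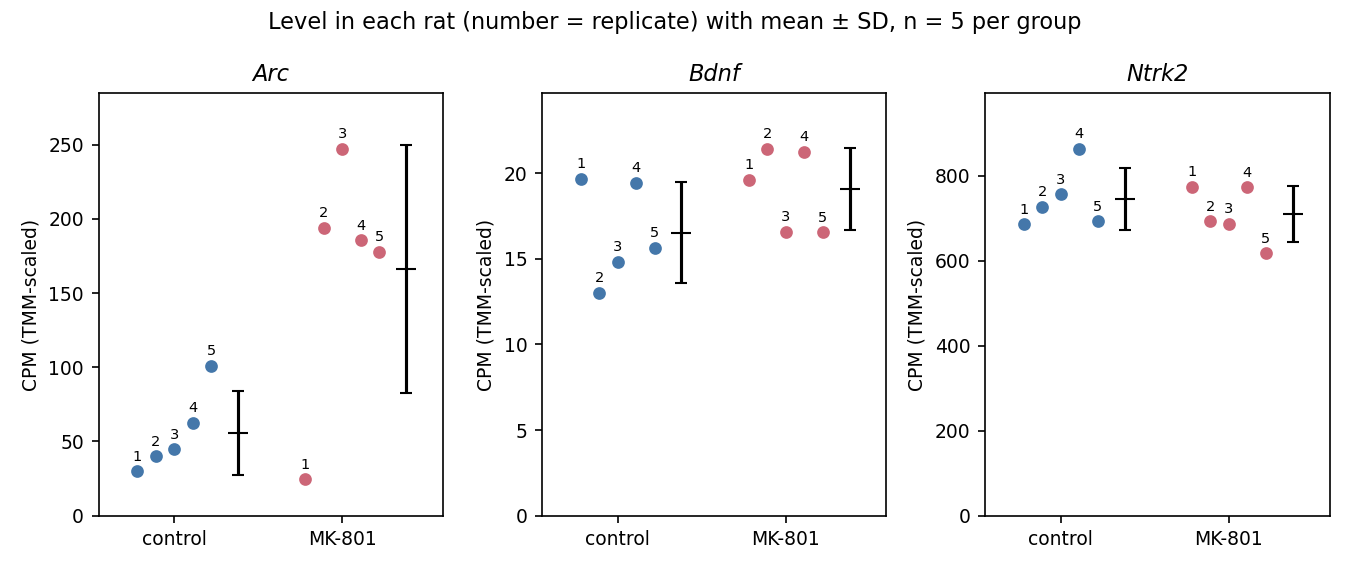
CPM of Arc, Bdnf and Ntrk2 in each rat, with the replicate number above each point and the mean ± SD of the group (n = 5) in black; each panel has its own axis from 0. Arc lay between 178 and 247 CPM in MK-801 replicates 2 to 5 and at 24.6 CPM in MK-801 replicate 1, whereas the groups overlapped widely for Bdnf and Ntrk2.

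Among the fits that each left out 1 rat, the Arc difference moved most without control replicate 5 and without MK-801 replicate 1, and both raised it. Replicates 2 to 5 of the MK-801 group had a mean of 201 ± 31.4 CPM (SD, n = 4), which was 8.19 times the level in MK-801 replicate 1. Without MK-801 replicate 1, the log2 fold change was 1.85 with an adjusted p of 0.0651 in edgeR's test, at rank 13 by p-value, and 12 genes passed the adjusted threshold. Without control replicate 5, the rat with the highest Arc level of the control group, it was 1.91 with an adjusted p of 0.109. In the other fits that each left out 1 rat, it was between 1.38 and 1.62, with unadjusted p-values from 0.0115 to 0.0187. The biological coefficient of variation that edgeR assigned to Arc, the spread between rats of 1 group beyond counting error, was 50.9% and exceeded that of 98.8% of the genes tested. Without MK-801 replicate 1 it was 30.0%, which still exceeded that of 93.1% of the genes. The total count of MK-801 replicate 1 was 30482771, close to the 30824539 of MK-801 replicate 5, and its 10 top genes held 7.05% of the counts, the highest share of its group. Labels were kept as deposited, and whether those of these rats were exchanged was not tested.

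The pattern of Arc over the rats was looked for in all genes. Among the 16137 genes, 25 (0.155%), with Arc included, had MK-801 replicates 2 to 5 above every control rat and MK-801 replicate 1 below every control rat. This pattern was taken from the Arc values, and the number of genes expected to have it by chance was not worked out. The likeness to Arc was measured by Pearson's r of log2 CPM over the 10 rats after the group means were removed, among 14542 other genes with at least 1 CPM on average. It exceeded 0.9 for 22 genes, and the number expected by chance was not worked out. Since the group means were removed, this r describes the variation within the groups, to which MK-801 replicate 1 contributes most. The most alike gene, ENSRNOG00000004100, had an r of 0.97. It was at 13.0 CPM in MK-801 replicate 1 and between 25.2 and 30.4 CPM in MK-801 replicates 2 to 5, against 13.6 to 22.8 CPM in the control group. The next, ENSRNOG00000007607, had an r of 0.96, with 46.1 CPM in MK-801 replicate 1, 135 to 167 CPM in the other MK-801 rats and 42.9 to 81.1 CPM in the control group. Both genes were chosen for their likeness to Arc within the groups. Their low level in MK-801 replicate 1, beside the rest of its group, thus follows from the choice. For ENSRNOG00000007607, MK-801 replicate 1 did not lie below every control rat.

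**Figure D2:**
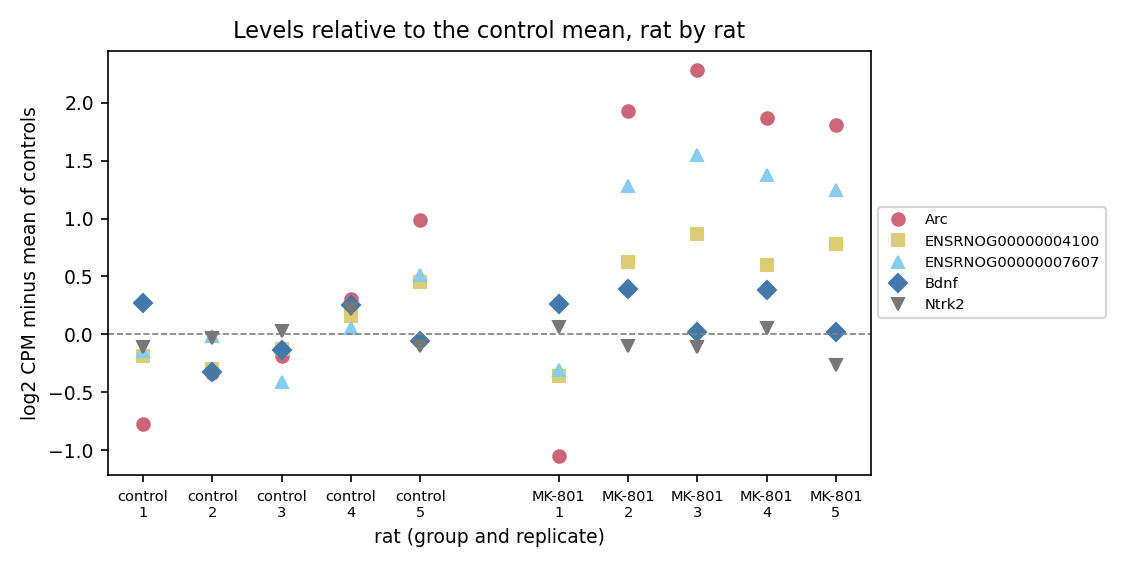
Log2 CPM minus the mean of the control rats (y axis) in each rat (x axis) for Arc, the 2 genes most like it within the groups, Bdnf and Ntrk2. Arc and both genes were high in MK-801 replicates 2 to 5 and low in MK-801 replicate 1, whereas the points of Bdnf and Ntrk2 lay closer to the dashed line at the control mean in MK-801 replicates 1 to 5.

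The mean of Bdnf was slightly higher with MK-801, by an amount that the spread between rats covers. In the control group, Bdnf was at 19.7, 13.0, 14.8, 19.4 and 15.7 CPM in replicates 1 to 5. In the MK-801 group, it was at 19.6, 21.4, 16.6, 21.2 and 16.5 CPM in replicates 1 to 5. The 5 MK-801 rats lay at or above the control mean of 16.5 ± 2.93 CPM (SD, n = 5), and replicates 2 and 4 alone lay above every control rat. The mean of the MK-801 group was 19.1 ± 2.41 CPM (SD, n = 5).

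The log2 fold change of Bdnf was 0.21 (standard error 0.12), with an unadjusted p of 0.124 and an adjusted p of 0.473 in edgeR's test with Benjamini-Hochberg adjustment (two-sided exact permutation test, p = 0.167). The 95% interval of the fold change ran from 0.956 to 1.39, so a fold change of the size of the Arc estimate lay outside it. Bdnf did not have an unadjusted p under 0.05, against 13.9% of all genes tested that did. Without control replicate 1, 1 of the 2 control rats with a high level, the log2 fold change was 0.28 with an unadjusted p of 0.0492 and an adjusted p of 0.325. Without control replicate 2, the lowest rat, it was 0.14. MK-801 replicate 1, the rat with the lowest Arc level, was in the middle of its group for Bdnf. The biological coefficient of variation of Bdnf was 14.1%, higher than that of 62.6% of the genes tested.

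Ntrk2, the receptor gene, was the most even of the 3 between rats. In the control group, Ntrk2 was at 686, 727, 756, 864 and 693 CPM in replicates 1 to 5. In the MK-801 group, it was at 774, 693, 687, 773 and 618 CPM in replicates 1 to 5. The groups overlapped over most of their ranges, with MK-801 replicate 5 below and control replicate 4 above all rats of the other group. The means were 709 ± 66.1 CPM and 745 ± 71.9 CPM (SD, n = 5 each) in the MK-801 and control groups.

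The log2 fold change of Ntrk2 was -0.07 (standard error 0.08), with an adjusted p of 0.720 in edgeR's test with Benjamini-Hochberg adjustment (two-sided exact permutation test, p = 0.476). The 95% interval of the fold change ran from 0.841 to 1.08. The log2 fold change stayed below 0 in the 10 fits that each left out 1 rat, and was closest to 0, at -0.01, without control replicate 4. It was 0.012 once the share of the 10 top genes, which is partly confounded with the group, was fitted as a covariate. The biological coefficient of variation of Ntrk2 was 9.74%, higher than that of 39.5% of the genes tested. Reads of the full-length and truncated TrkB transcripts are summed in this count.

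**Figure D3:**
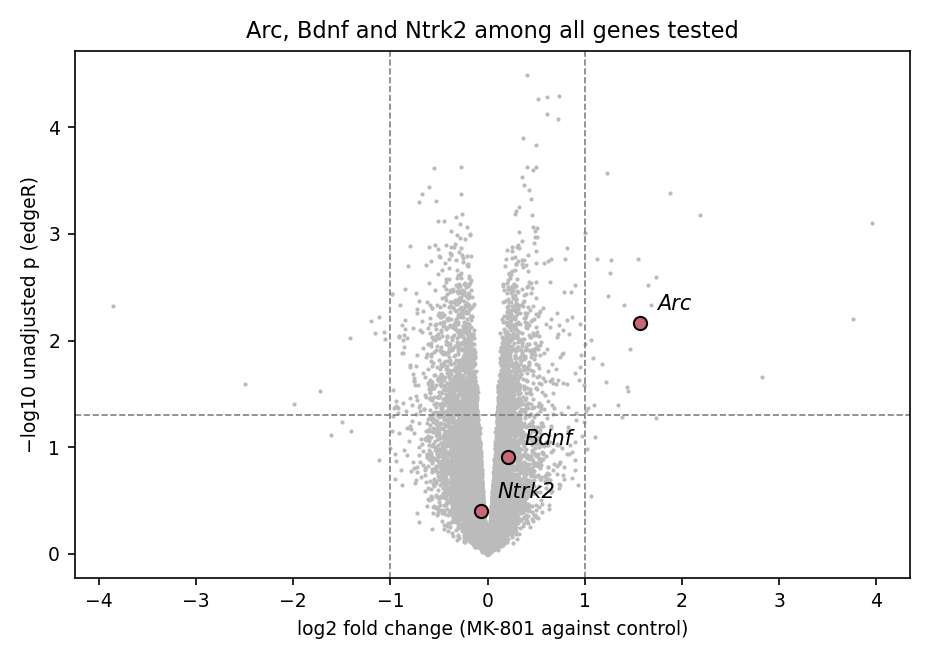
Log2 fold change, MK-801 against control (x axis), and the negative log10 of the unadjusted p of edgeR's test (y axis) for the 16137 genes tested, with Arc, Bdnf and Ntrk2 in red. Dashed lines mark an absolute log2 fold change of 1 and a p of 0.05; Arc, at 1.57, lay past both lines, and Bdnf and Ntrk2 lay past neither.

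The ratio of 2 genes within a rat does not depend on the scaling of its library, and was used to compare the 3 genes with each other. This comparison was added after the levels were seen. The log2 ratio of Arc to Bdnf counts was 2.79 ± 1.41 in the MK-801 group and 1.64 ± 0.74 in the control group (SD, n = 5 each), and higher than in every control rat in 4 of the 5 MK-801 rats. The difference was 1.15, which the spread between rats covers (exact permutation, two-sided, p = 0.143, also 0.143 after adjustment over the 3 ratios). For Arc to Ntrk2, the difference was 1.44 (two-sided exact permutation test, p = 0.0873, adjusted p = 0.131). With 1 rat left out in turn, the adjusted p of the same exact permutation test was 0.119 or more in 9 of the 10 cases for either ratio, and reached 0.270 for Arc to Bdnf and 0.238 for Arc to Ntrk2. In the remaining case, without MK-801 replicate 1, the differences were 1.77 and 2.08, each with an adjusted p of 0.0238. That rat is the one with the lowest Arc level, so this value is no independent evidence.

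The ratio of the ligand gene to its receptor gene was less variable. The log2 ratio of Bdnf to Ntrk2 counts was -5.22 ± 0.14 in the MK-801 group and -5.51 ± 0.26 in the control group (SD, n = 5 each). The difference was 0.29 (two-sided exact permutation test, p = 0.0635, adjusted p = 0.131). The MK-801 rats lay between -5.37 and -5.02 and the control rats between -5.80 and -5.12, so that control replicate 1, at -5.12, lay among the MK-801 rats. With 1 rat left out in turn, the adjusted p of the exact permutation test was between 0.0714 and 0.214 in 9 of the 10 cases. It was 0.0238, with a difference of 0.38, without control replicate 1, the control rat with the highest ratio, which is likewise no independent evidence.

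No relation between the levels of the 3 genes was detected over the 10 rats. For Arc and Bdnf, Pearson's r of log2 CPM was 0.18 (permutation p = 0.612) and Spearman's rho was 0.24 (permutation p = 0.512). For Arc and Ntrk2, r was -0.39 (permutation p = 0.276) and rho was -0.28 (permutation p = 0.428). For Bdnf and Ntrk2, r was 0.23 (permutation p = 0.522) and rho was 0.12 (permutation p = 0.761). After Benjamini-Hochberg adjustment over the 3 pairs, every r had a p of 0.612 and every rho a p of 0.761. Without the 2 rats farthest from the median of the first gene of each pair, r was 0.44, -0.26 and 0.50 for the 3 pairs in the same order. After the group means were removed, r was -0.13, -0.28 and 0.44 (exact permutation within the groups, p = 0.722, 0.511 and 0.239). The genes most like Bdnf and Ntrk2 within the groups, by the measure used for Arc, had r of 0.92 and 0.97, with 3 and 27 genes above 0.9. These are the highest values among 14542 genes over 10 rats, and the number expected by chance was not worked out.

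**Figure D4:**
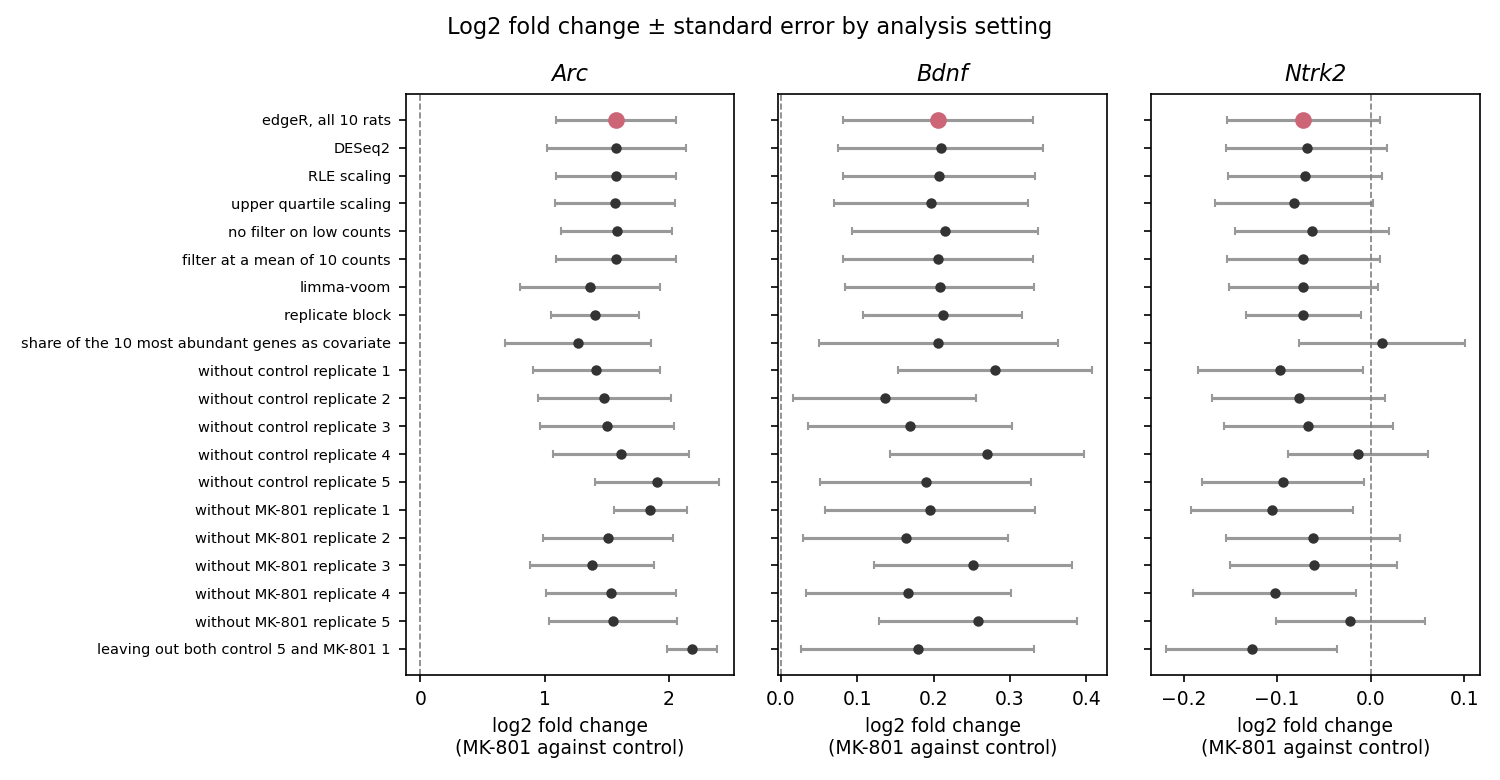
Log2 fold change ± standard error (x axis, its own range in each panel) of Arc, Bdnf and Ntrk2 under each analysis setting (y axis), with edgeR on all 10 rats in red and 0 dashed. Arc lay between 1.27 and 2.19 and Bdnf between 0.14 and 0.28 in all settings shown, whereas Ntrk2 lay between -0.13 and 0.01.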

How the data were processed

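Sequencing covered PFC RNA of 5 male SD rats per group. According to the methods and the submitters' processing notes, the authors aligned the reads with HISAT2 2.2.1 and SAMtools 1.15.1 (build mRatBN7.2) and counted them with featureCounts (Subread 2.0.1) on Ensembl release 105. The strand setting is not stated, so overlapping and antisense genes may share reads. The authors deposited whole-number counts per gene and rat, without normalization. From these, genes were filtered with filterByExpr (minimum count 10, minimum total 15), scaled by TMM and compared by edgeR's quasi-likelihood test (edgeR 4.0.16, R 4.3.3, two-sided), with Benjamini-Hochberg adjustment over 16137 genes. Each edgeR standard error is the size of the log2 fold change divided by the root of its F statistic. DESeq2 reports its own, and that of limma-voom is the log2 fold change divided by its t statistic. CPM values used the TMM-scaled library sizes. DESeq2 1.42.0, limma-voom (limma 3.58.1), other scalings and filters, a replicate block, a covariate and fits without single rats were the alternatives. Fits were tested on simulated counts. In all 45 pairs of rats the libraries differed by more than sampling noise (chi-square per degree of freedom of at least 8.83).

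Arc, Bdnf and Ntrk2, the gene lists and the tests were chosen with earlier results of these data known. The genes to be named were these 3, genes of neurotrophin, activity and marker lists, and the genes most alike within groups. The lists were not analysed, since the identifiers are not paired with names and a RefSeq gene table of GRCr8 matched 0 of 30560. No more than 2 of the alike genes are named, by identifier. The names of Arc, Bdnf and Ntrk2 come from the identifiers that defined them. Promoter windows matched Bdnf alone, and the motifs were chosen with its sequences at hand. Replicate numbers were not taken as pairs.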

Additional observations from a re-analysis of the deposited data

Results flagged for a closer look

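In the 6 groups of 5 values formed by the 3 genes and 2 groups, 1 value stood apart from the rest of its group. If the log2 values were normally distributed, chance would give this in about 1 in 20 groups, and 6 were examined. The rat in question was already singled out in earlier results of the same data, so the flag is no independent evidence. Arc in MK-801 replicate 1, at 24.6 CPM, lay below the next MK-801 rat, at 178 CPM, by 0.857 of the whole range of the group on the log2 scale, past the critical value of 0.71. For control replicate 5, the highest control rat for Arc at 101 CPM, the same gap was 0.390 of the range. No rat stood apart by this measure for Bdnf or Ntrk2. In MK-801 replicate 1, Bdnf was at 19.6 CPM and Ntrk2 at 774 CPM, both within the range of the control group.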

How the results depend on the processing

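Across 9 settings that kept all rats or left out 2, and 10 fits that each left out 1 rat, Arc and Bdnf were higher in the MK-801 group in all of them. Adjusted p-values ranged from 0.00216 to 0.916 for Arc, from 0.325 to 0.916 for Bdnf and from 0.502 to 0.995 for Ntrk2. Without both control replicate 5 and MK-801 replicate 1, the log2 fold change of Arc was 2.19 with an adjusted p of 0.00216 in edgeR's test, where 15 genes passed. These rats were singled out in earlier results of the same data, and are the highest control rat and the lowest MK-801 rat for Arc, so this value is no independent evidence. The share of the 10 top genes is partly confounded with the group. Once it was fitted as a covariate, the log2 fold change was 1.27 for Arc (unadjusted p = 0.0533, edgeR) and reversed to 0.012 for Ntrk2. Leaving out 1 rat gave 1.38 to 1.91 for Arc, 0.14 to 0.28 for Bdnf and -0.11 to -0.01 for Ntrk2.

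Both groups use replicate numbers 1 to 5. Deviations of same-numbered rats correlated above 0.1 in 3 of 5 pairs (from -0.04 to 0.29). Rats of different numbers were not set beside these, and no pairing was assumed. With the replicate block, the log2 fold changes were 1.40, 0.21 and -0.07 for Arc, Bdnf and Ntrk2. In edgeR, the unadjusted p-values were then 0.00367, 0.0737 and 0.274, and the adjusted ones 0.146, 0.325 and 0.581. Between genes, r for Arc and Bdnf was -0.0042 without control replicate 2, and about group means 0.0029 without control replicate 1. For Arc and Ntrk2, r about group means reversed to 0.14 without MK-801 replicate 1. Leaving out 1 rat gave pooled r of -0.0042 to 0.34, -0.53 to -0.26 and 0.12 to 0.34, and r about group means of -0.25 to 0.0029, -0.46 to 0.14 and 0.22 to 0.72, for Arc and Bdnf, Arc and Ntrk2, and Bdnf and Ntrk2. The cause was not tested. The gene lists were not run.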
